A study of Mus musculus with 2 samples.

Results

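The stretch of chromosome 18 described here runs from 36.8 to 38.1 Mb on mouse build mm8 and holds the alpha, beta and gamma clusters of protocadherin genes. It was chosen by position alone. Its members are all 6500 windows of 200 bp between these limits, counted at 0 where the deposited lists give no read, and the reads placed there: 1404 of 2471782 distinct reads in the WT library and 2886 of 2790389 in the Lsh_KO library. It was compared with the other 64353 and 99132 distinct reads of chromosome 18, because that chromosome takes a larger share of the reads in Lsh_KO, with 2.66% of the distinct reads of WT and 3.66% of those of Lsh_KO.

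Clustered protocadherins are cell adhesion proteins of the cadherin family that neurons display on their surface, where like isoforms bind each other and let a neuron tell its own branches from those of others. Most variable exons of the alpha and gamma clusters, and each beta gene, have a promoter of their own. A neuron switches on a few of these promoters and leaves the rest silent, in a choice that depends on DNA methylation, on the looping protein CTCF and on cohesin. Lsh, the product of the Hells gene, is an SNF2-type remodelling ATPase without which mouse cells fail to methylate much of their DNA, and trimethylation of lysine 4 of histone H3 (H3K4me3) marks active and poised promoters.

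The study measured H3K4me3 in 2 mouse embryonic fibroblast lines, labelled Lsh+/+ (WT) and Lsh-/- (Lsh_KO), grown in the same medium with serum. Chromatin of 20000000 cells per line was digested by micrococcal nuclease, most of it to the size of 1 nucleosome. An H3K4me3 antibody pulled down the marked part, which was amplified over 20 cycles and sequenced from fragments of 200 to 400 bp. Each line gave 1 library, and the values below have no input library beside them. The labels do not say how the gene was disrupted, how many embryos a line came from or whether the lines share a littermate, so a difference between the lines cannot be told apart from an effect of Lsh. No test of the genotype was possible: ratios are given with exact conditional 95% intervals, which cover counting error only, since each line gave 1 library. The amplified reads carry no molecular identifiers and may repeat a molecule, so even these intervals may be too narrow.

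RefSeq's gene table for assembly GRCm38.p6, a later build, was used for the names and the order of genes only. It lists 14 alpha genes (12 Pcdha genes, Pcdhac1 and Pcdhac2), then 22 Pcdhb genes, then Slc25a2, a mitochondrial carrier, and Taf7, a subunit of the general transcription factor TFIID, and then 22 gamma genes of the Pcdhga, Pcdhgb and Pcdhgc kinds. Genes used by most cells lie on either side: Hars, Hars2 and Zmat2 come before the alpha cluster, and Diaph1, Hdac3 and Rell2 come after the gamma cluster. Positions of that build were not carried over to mm8, so no region below is assigned to a gene.

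The label of the cells was checked at promoters outside chromosome 18, which could be placed on mm8 through reads that hold a sequence found in 1 RefSeq promoter only. A promoter was called marked when 10 or more reads, and no fewer than 5 times the background of a 2 kb window, lay within 1 kb of its start site. Of the 7 fibroblast marker genes that could be placed, WT had all 7 marked. Lsh_KO had 6, with 2 reads at S100a4 against 15 in WT. Unscaled, Col1a2 had 48 WT and 14 Lsh_KO reads and Fbn1 had 63 and 44, whereas Col3a1, Vim, Twist1 and Prrx1 had more reads in Lsh_KO. Among 7 placed neural genes WT had the mark at 2 and Lsh_KO at 3. Neither library had it at the 2 placed pluripotency genes or the 1 placed blood gene, but both had it at the 1 placed endothelial gene, Kdr, a receptor for vascular growth factor, with 28 WT and 58 Lsh_KO reads. Both placed epithelial genes were marked in Lsh_KO and 1 was in WT, with 67 and 14 reads in all, and the keratin gene Krt18 had 51 reads in Lsh_KO and 1 in WT. The part of these other cell type markers in the results below was not tested. Placing a promoter requires a read in it, which favours marked promoters: over 15236 placed genes, 64.0% were marked in WT and 64.2% in Lsh_KO.

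The stretch as a whole held more reads in Lsh_KO, relative to the rest of its chromosome. The WT library had 1404 distinct reads there, 2.14% of its chromosome 18 reads (95% Clopper-Pearson interval 2.03 to 2.25), and the Lsh_KO library had 2886, or 2.83% (2.73 to 2.93). The ratio of Lsh_KO to WT reads was 2.06 in the stretch and 1.54 on the rest of the chromosome, so that the stretch was 1.33-fold higher relative to it (1.25 to 1.42). This value pools windows of high and low counts, whose separate ratios, given below, were each smaller. The reads fell mostly into a few places: 5403 of the 6500 windows had no read in WT and 4867 had none in Lsh_KO, and 4295 were empty in both. Windows with at least 6 reads numbered 72 in WT and 122 in Lsh_KO. Of these, 67 reached 6 reads in both libraries, 5 in WT alone and 55 in Lsh_KO alone. The share in Lsh_KO alone, 43.3%, was near the 37.8% of such windows on the rest of chromosome 18, and the share in WT alone was 3.94% against 5.79% there. Over the genome these shares were 25.8% and 10.7%.

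**Figure D1:**
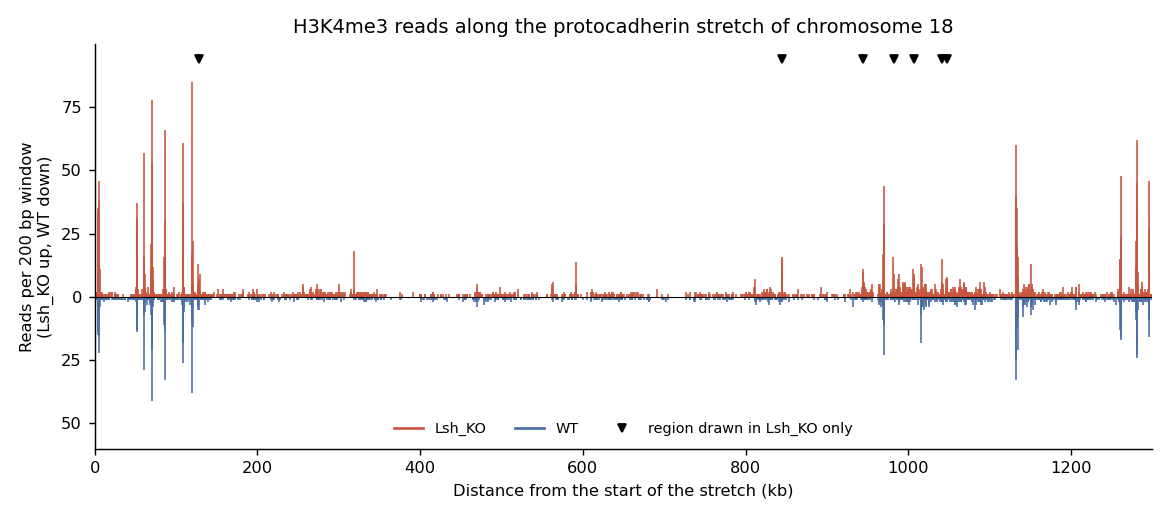
Reads per 200 bp window along the stretch, Lsh_KO upward and WT downward, against the distance from its start in kb, unscaled. Tall peaks at both ends occur in both libraries, reaching 85 reads in Lsh_KO and 41 in WT, and black triangles mark the 7 regions drawn in Lsh_KO only, of which 6 lie 844 kb or farther into the stretch.

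Windows with at least 6 reads in either library were joined into regions when no more than 1 kb apart, and a region needed 20 reads in a library. This gave 20 regions in the stretch, against 322 on the rest of chromosome 18. Region counts come from the deposited window lists, and ratios of regions are divided by 2.05, the median Lsh_KO to WT ratio of the 282 regions on the rest of chromosome 18 with at least 20 reads in each library. A region was called higher or lower when this ratio was at least 2-fold, its interval excluded 1 and the libraries held 20 reads together.

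Of the 20 regions, 13 reached 6 reads per window in both libraries, 7 did so in Lsh_KO alone and 0 in WT alone. On the rest of chromosome 18, 4.35% of the regions were drawn in Lsh_KO alone and 0.621% in WT alone, and over the genome 2.84% and 2.05%. Called higher in Lsh_KO were 5 of the 20 regions, where 5.59% were on the rest of chromosome 18 and 3.69% over the genome with the genome's own median. Called lower was 1 of the 20, where the shares were 4.66% and 5.83%. All 5 higher regions were among the 7 drawn in Lsh_KO alone. The counts that drew a region also gave its ratio, interval and call, inside the stretch and outside it. For regions drawn in 1 library alone, this choice moves ratios and limits toward that library, so their calls are no independent evidence. Scaled by each library's total reads, which leaves the larger share of chromosome 18 in place, 12 of the 20 were called higher and 0 lower, where 37.3% and 1.55% were on the rest of chromosome 18. The median log2 ratio of the regions with reads in both libraries was 0.17 in the stretch and 0.02 on the rest of the chromosome.

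**Figure D2:**
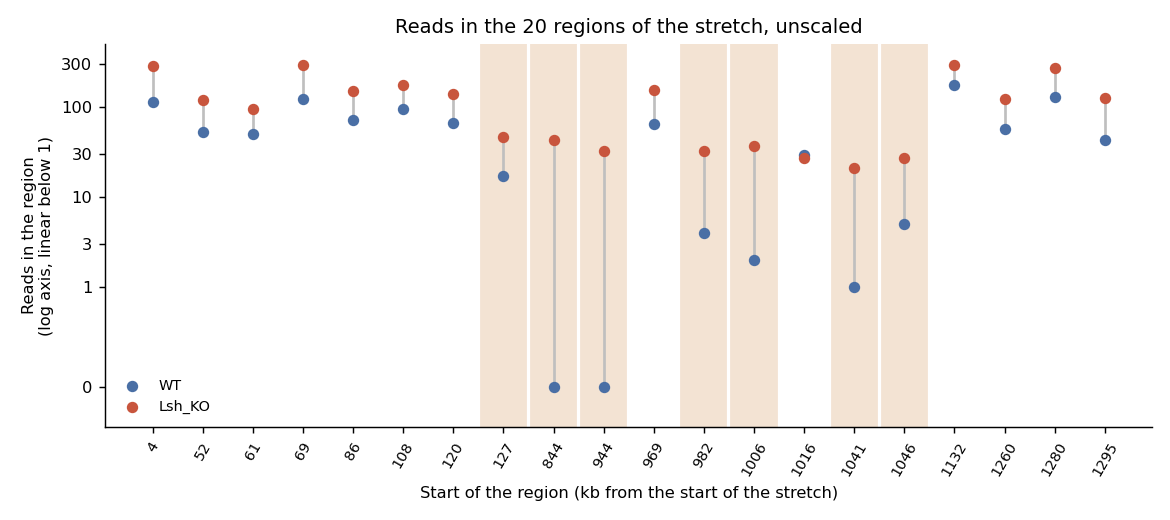
Reads per region for the 20 regions of the stretch in their order, unscaled, on a log axis that is linear below 1; blue points are WT, red points Lsh_KO, and shading marks the 7 regions drawn in Lsh_KO only. The 13 shared regions have 29 to 173 WT reads, whereas 6 of the 7 shaded ones have 0 to 5 and the other has 17.

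The regions shared by the lines were near their chromosome's usual ratio. Together the 13 regions held 1069 WT and 2241 Lsh_KO reads, a ratio of 1.02 (0.9502 to 1.10) relative to the rest of chromosome 18. Their WT counts ran from 29 to 173 and their Lsh_KO counts from 27 to 291. For 11 of them the interval included 1, for 2 it lay below 1 and for 0 above it.

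A compact block of shared regions opened the stretch, with 8 regions from 36804201 to 36929200. The region from 36869401 to 36871600 had 124 WT and 291 Lsh_KO reads, a ratio of 1.14 (0.925 to 1.42). The region from 36804201 to 36806400 had 114 and 283 reads, a ratio of 1.21 (0.971 to 1.52). The region from 36908401 to 36910000 had 95 and 175 reads, a ratio of 0.898 (0.696 to 1.17). These 3 were the fullest of the block, and all of their intervals included 1. The narrow region from 36919801 to 36920600 held the tallest window of the stretch in Lsh_KO, with 85 reads, and had 67 WT and 140 Lsh_KO reads in all, a ratio of 1.02 (0.756 to 1.38). The region from 36885801 to 36887000 had 72 and 150 reads, a ratio of 1.02 (0.762 to 1.37). The remaining 2 shared regions of the block, starting at 36851601 and 36860601, had 52 and 50 WT reads against 118 and 95 in Lsh_KO. The block ended with a weak region from 36927401 to 36929200, with 17 WT and 46 Lsh_KO reads, a ratio of 1.32 (0.742 to 2.46). It counts as drawn in Lsh_KO alone because its highest WT window had 5 reads, 1 short of the minimum.

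At the far end, 4 shared regions again showed little difference. The widest region of the stretch, 3600 bp from 37931801 to 37935400, had 173 WT and 289 Lsh_KO reads and was slightly lower in Lsh_KO, at a ratio of 0.815 (0.673 to 0.989) that did not reach 2-fold. The region from 38079801 to 38082000 had 128 and 269 reads, a ratio of 1.03 (0.827 to 1.28). The region from 38060401 to 38061400 had 57 and 124 reads, a ratio of 1.06 (0.769 to 1.48). The last, from 38095201 to 38096200, had 43 and 125 reads, and its ratio of 1.42 was the highest of the shared regions, with an interval from 0.995 to 2.05.

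Between these ends the marked places differed between the lines. A span of 715 kb, from 36929201 to 37644200, held 0 regions in either library, and the 203.4 kb after it, from 37644201 to 37847600, held 8 regions, of which 6 were drawn in Lsh_KO alone. The limits of these spans were set after the regions had been drawn.

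The region with the largest difference in reads among those drawn in Lsh_KO alone lay at 37644201 to 37644800. Its 3 windows held 0 WT reads and 43 Lsh_KO reads, with 16 in the highest window. Its scaled ratio was 6.99 when the WT library was set to a floor of 3 reads in that region, and the exact 95% lower limit was 5.45-fold. The region from 37744401 to 37745200 likewise held 0 WT reads, against 32 in Lsh_KO. Its scaled ratio was 5.20 against the same floor, with a lower limit of 3.99-fold. The choice of both regions by their counts raises these values. No WT read fell in any window of these regions, and each window had reads in Lsh_KO.

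Next along the stretch came a shared region, from 37769201 to 37770800, with 65 WT and 155 Lsh_KO reads, a ratio of 1.16 (0.865 to 1.58). Both libraries had a clear peak there, between neighbours with few or no WT reads. After it the region from 37781601 to 37782400 had 4 WT and 32 Lsh_KO reads, a ratio of 3.90 (1.38 to 15.2). The region from 37806201 to 37807200 had 2 and 37 reads, a ratio of 9.02 (2.33 to 77.3). The region from 37840801 to 37841200 had 1 and 21 reads, a ratio of 10.2 (1.65 to 424). With so few WT reads the sizes of these ratios are poorly known, and their lower limits run from 1.38 to 2.33. The choice of these regions by their counts raises the ratios and the limits.

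A further region, from 37846401 to 37847600, had 5 WT and 27 Lsh_KO reads, a ratio of 2.63 whose interval (0.9998 to 8.76) reached 1, so it was not called. With the median ratio of all regions of the genome as the scale it was called higher. Among these regions lay the 1 called lower, from 37815801 to 37816400, with 29 WT and 27 Lsh_KO reads. Its counts were nearly equal, and the ratio of 0.454 (0.259 to 0.795), 2.20-fold lower in Lsh_KO, rests on the scale of chromosome 18. Scaled by the genome's median it was not called, with a log2 ratio of -0.66 in place of -1.14.

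**Figure D3:**
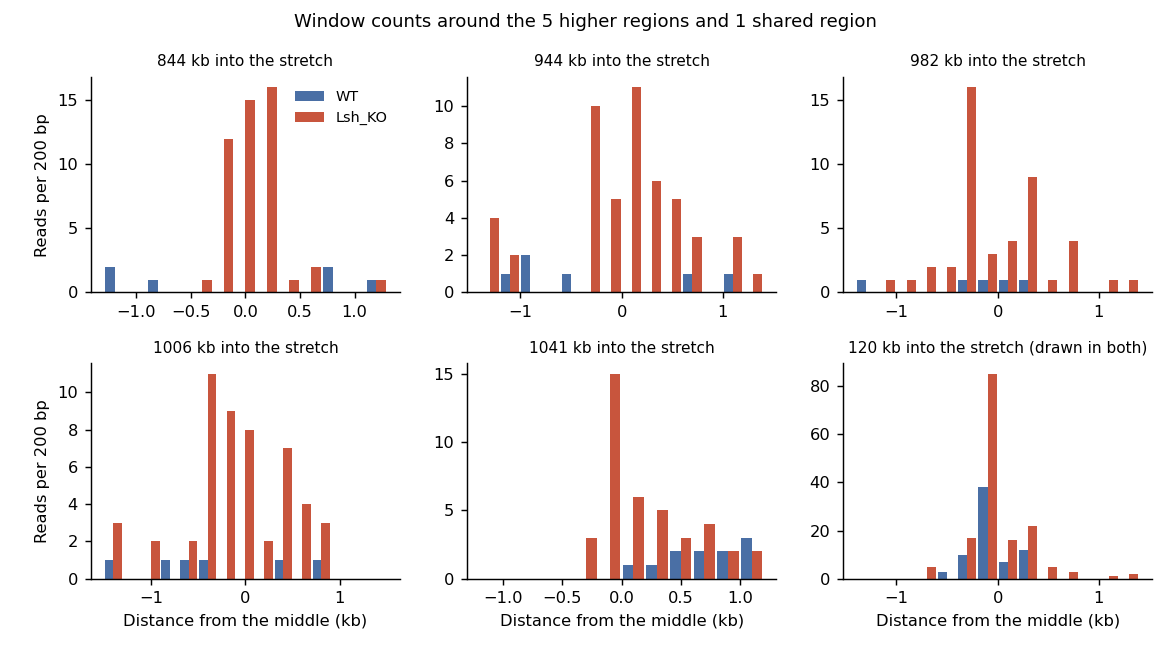
Reads per 200 bp window around the 5 regions called higher and, at lower right, around the shared region 120 kb into the stretch, unscaled, against the distance from the region's middle in kb; blue bars are WT and red bars Lsh_KO. Inside the regions called higher no WT window exceeds 1 read and the highest Lsh_KO window has 11 to 16, whereas the shared region reaches 38 reads in WT and 85 in Lsh_KO.

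Taken by level, the Lsh_KO peaks were lower than the shared ones. The 7 regions drawn in Lsh_KO alone had 21 to 46 Lsh_KO reads, and each shared region other than the one starting at 37815801 had at least 95. They were 400 to 1800 bp wide, against 600 to 3600 bp for the shared regions. The drawing rule favours both differences, because a shared region also had to reach 6 reads per window in WT. Level and width are thus no separate finding about these regions. Together they held 29 WT and 238 Lsh_KO reads, 4.00-fold higher in Lsh_KO (2.72 to 6.11), a value that the choice by counts raises.

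**Figure D4:**
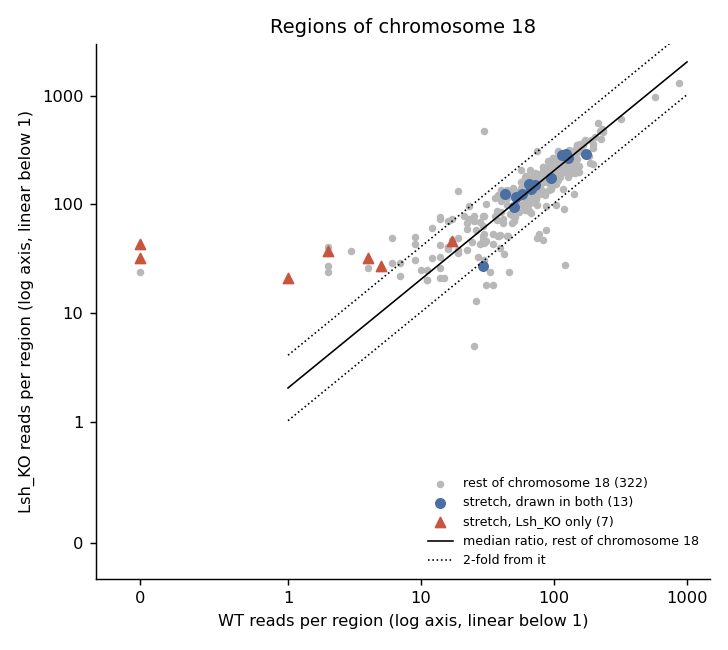
WT against Lsh_KO reads per region on chromosome 18, on log axes that are linear below 1; grey points are 322 regions outside the stretch, blue points the 13 shared regions of the stretch and red triangles the 7 drawn in Lsh_KO only. The solid line is the median ratio of 2.05 and dotted lines lie 2-fold from it; 12 of the 13 blue points lie between the dotted lines, and 6 of the 7 triangles lie above them.

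The deposited window lists hold more reads than the read lists, and these further reads, whose origin the sources used here do not give, served as a technical repeat. They carry the same labels and measure no spread between cultures. Over the 13 shared regions the ratio was 1.06 (0.953 to 1.17) in the reads of the read lists and 1.02 (0.914 to 1.13) in the further reads. Over the 7 regions drawn in Lsh_KO alone it was 3.86 (2.38 to 6.59) and 4.50 (2.34 to 9.70). Both kinds of reads had entered the drawing of the regions, so this is no independent check. The region at 37644201 had 0 WT reads of either kind against 23 and 20 Lsh_KO reads, and that at 37744401 had 0 against 17 and 15. With the read lists alone 3 of the 20 regions were called higher and 0 lower, where 4.66% and 4.04% were on the rest of chromosome 18. With the further reads alone 1 was called higher, the region at 37644201, and 1 lower, that at 37815801, each near the shares of 2.8% and 4.35% there.

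Fixed windows of 2 kb were also counted, from the read lists alone, so the further reads did not enter their choice. The same limits as for promoters made a window marked: 10 reads, and 5 times a background that averaged 1.36 reads per window in both libraries. Of the 650 windows of the stretch, WT had 23 marked and Lsh_KO had 55, with 22 marked in both, 33 in Lsh_KO alone and 1 in WT alone. Those in Lsh_KO alone were 58.9% of the 56 marked in either library, where 34.7% were on the rest of chromosome 18 and 20.9% over the genome. Those in WT alone were 1.79%, where 5.69% and 14.6% were. A window was called gained when it was marked in Lsh_KO and below 2 times background in WT, and lost in the opposite case. Gained were 10 of the 56 windows marked in either library (17.9%), where 8.28% were on the rest of chromosome 18 and 3.41% over the genome. Lost were 0 of the 56, where the shares were 0.388% and 2.44%.

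The 10 gained windows had 0 to 2 reads each in WT and 10 to 25 in Lsh_KO. The 4 that lay in the 715 kb span without a region started at 37056001, with 0 WT and 11 Lsh_KO reads, at 37118001, with 0 and 15, at 37362001, with 1 and 14, and at 37390001, with 2 and 16. The other 6 started at 37644001 (2 and 25 reads), 37744001 (2 and 24), 37746001 (2 and 10), 37782001 (1 and 20), 37792001 (1 and 11) and 37832001 (2 and 10). Gained windows were thus found across the middle of the stretch, and 0 of them lay in the opening block or among the 4 closing regions.

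In the further reads the 10 gained windows held 10 WT and 95 Lsh_KO reads. Relative to the further reads of the rest of chromosome 18 this was 6.26-fold higher in Lsh_KO (3.26 to 13.5), and Lsh_KO had more further reads than WT in 10 of the 10 windows, with 3 to 23 each. The 64 gained windows of the rest of the chromosome held 104 and 327 further reads, 2.07-fold higher (1.66 to 2.61). All 33 windows marked in Lsh_KO alone held 81 and 315 further reads, 2.56-fold higher (2.00 to 3.31), with Lsh_KO above WT in 31 and below it in 1. The further reads are of unknown origin and may repeat molecules of the reads that chose these windows, so this is no independent check.

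The deeper coverage of chromosome 18 in Lsh_KO bears on these counts. The Lsh_KO reads of that chromosome were thinned at random to the WT number there, in a single draw, so the spread between draws is not known. In that draw 35 windows of the stretch were marked in Lsh_KO against 23 in WT. Gained were 5 of 40 (12.5%), where the share on the rest of the chromosome was 1.86%. No window was lost at that depth.

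Runs of windows with at least 6 reads that missed the 20-read minimum numbered 14, of which 13 were a single window. In 10 of them the fuller library had 6 to 8 reads, and in 4 it had 13 to 18. Lsh_KO had more reads in 13, or 92.9%, where 73.8% of 191 such runs on the rest of chromosome 18 had. Past the chromosome's ratio of 2.05 were 12 of the 14, or 85.7%, where 61.3% were. The most reads in a single library were in the window from 37118401 to 37118600, with 1 WT and 18 Lsh_KO reads, and the run from 37787801 to 37788200 had 3 and 16. The window from 37951201 to 37951400, with 7 and 13, had more reads in Lsh_KO but did not pass the chromosome's ratio. The window from 37391201 to 37391400 had 1 and 14 reads. The run with more reads in WT was the window from 37941001 to 37941200, with 8 WT reads and 1 Lsh_KO read. At the other side of the minimum, the region with the fewest reads that was kept had 21 in Lsh_KO.

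Reads outside all regions were also raised in the stretch. They numbered 1295 in WT and 2432 in Lsh_KO, 1.37-fold higher relative to such reads on the rest of the chromosome (1.28 to 1.47), and 1.34-fold (1.25 to 1.43) with the smaller runs left out as well. In those 2 kb windows that neither library filled to 10 reads the ratio was 1.29 (1.17 to 1.42). The raised level was not even along the stretch. Outside regions, the opening block from 36804201 to 36929200 stood at 0.996 (0.808 to 1.23), the 715 kb span after it at 1.66 (1.47 to 1.87), the 203.4 kb that follow at 1.85 (1.59 to 2.15) and the closing 164.4 kb from 37931801 at 0.906 (0.778 to 1.05). The last 2 of these spans do not adjoin. Between them, the 50 kb from 37850001 to 37900000 had 144 WT and 242 Lsh_KO reads, a ratio of 1.23 (0.994 to 1.52).

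In bins of 50 kb counted from the start of the stretch, 21 of 26 had a ratio above 1 outside regions, with an interval above 1 in 8 bins and below 1 in 2. The bin from 250 to 300 kb, which held 0 regions, had 23 WT and 125 Lsh_KO reads, 3.97-fold higher (2.53 to 6.49). The bin from 550 to 600 kb had 17 and 92 reads, 3.95-fold higher (2.34 to 7.07), and the bin from 300 to 350 kb had 35 and 136, 2.84-fold higher (1.94 to 4.24). These 3 bins lie in the span without a region and hold its 4 gained windows. Their raise thus includes the reads of these windows and of the smaller runs that fall in the bins. The gained window of the bin from 250 to 300 kb held 0 WT and 11 Lsh_KO reads of the read lists, and 0 and 3 further reads. That is a small part of the 125 Lsh_KO reads of its bin. The bins were not counted without these windows. The bin from 950 to 1000 kb had 79 and 251 reads, 2.32-fold higher (1.79 to 3.03). Neighbouring bins did not all share the raise: that from 400 to 450 kb had 24 and 27 reads, a ratio of 0.821 (0.456 to 1.49). The bins with an interval below 1 were the opening one, with 57 and 46 reads, and that from 1150 to 1200 kb, with 102 and 105.

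**Figure D5:**
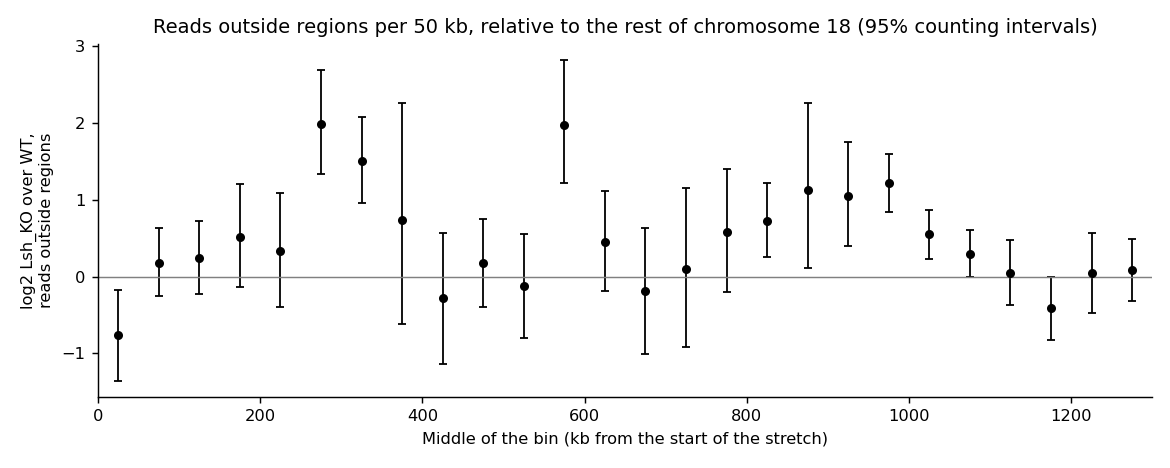
The log2 ratio of Lsh_KO to WT reads outside regions in each of 26 bins of 50 kb, relative to the rest of chromosome 18, against the distance from the start of the stretch in kb; bars are exact 95% counting intervals. The highest bin, from 250 to 300 kb, stands at 1.99, and the bins at both ends lie near or below 0.

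Mismatches and alignment scores were alike inside and outside the stretch, whereas base composition and repeats were not. Observed over expected CpG of the reads was 0.4999 in WT and 0.524 in Lsh_KO inside, against 0.381 and 0.407 on the rest of the chromosome. GC content was 51.9% and 50.6% inside, against 50.2% and 49.4%. Repeats of a position and strand made up 16.9% of WT and 26.02% of Lsh_KO reads inside, against 11.5% and 17.5%. The 2 kb windows marked in either library held 55.0% of WT and 60.4% of Lsh_KO reads inside, against 26.1% and 32.7%. The part of this larger marked share in the differences of base composition and repeats was not tested. A mismatch to the reference was found in 15.1% of WT reads of the stretch (13.3 to 17.1) and 14.5% of Lsh_KO reads (13.2 to 15.8), against 15.1% and 15.05% on the rest of the chromosome. The median alignment score was 52 in both libraries, inside and outside. In the 7 regions drawn in Lsh_KO alone, 16.5% of the 133 Lsh_KO reads placed wholly inside carried a mismatch (10.7 to 23.97), and each region's median score lay between 51 and 53. Each of these 7 regions had Lsh_KO reads on both strands, 77 forward and 56 reverse in all. Protocadherin genes resemble each other in sequence, and reads from near-identical copies were not told apart beyond these scores.

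Base composition was read from the reads inside each region. The regions drawn in Lsh_KO alone had a median GC content of 52.0% (44.2 to 59.3) and a median observed over expected CpG of 0.484 (0.197 to 0.824). The shared regions of the stretch had medians of 56.3% (51.5 to 63.8) and 0.694 (0.471 to 1.05). On the rest of chromosome 18 the medians were 54.7% and 0.608 for 14 regions drawn in Lsh_KO alone and 59.1% and 0.732 for 306 shared ones, with ranges that overlap in both places. The 2 regions drawn in WT alone there were lower still, at 53.5% and 0.320. The lowest CpG value of the stretch, 0.197, belonged to the region at 37644201.

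Promoters of genes known to act on the clusters lie on other chromosomes. Of 19 gene symbols looked for, 14 were in the promoter table and 13 could be placed. WT had the mark at 12 of these and Lsh_KO at 13. Ctcf, which encodes the looping protein that binds protocadherin promoters, had 80 WT and 109 Lsh_KO reads. The cohesin genes Smc1a, Smc3 and Stag1 had 34, 50 and 40 WT reads and 83, 56 and 61 Lsh_KO reads. Smchd1, a repressor of the clusters, had 84 and 130 reads, and the DNA methyltransferase gene Dnmt3b had 36 and 41. Setdb1, which encodes a histone H3 lysine 9 methyltransferase, was the gene not marked in WT, with 7 reads against 18. The targeted gene, Hells, had 84 and 116 reads at its promoter. A promoter mark does not check the disruption, since the labels do not say which part of the gene is missing. These counts are unscaled, and their direction turns with the scale. Divided by the ratio of distinct reads, 1.13, Ctcf stood at 1.21 and Hells at 1.22, and 12 of the 13 genes were above 1. Divided by the median ratio of regions over the genome, 1.47, Ctcf stood at 0.926 and Hells at 0.939, and 5 of the 13 were above 1.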

How the data were processed

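H3K4me3 chromatin was sequenced in 1 WT and 1 Lsh_KO library, with 2869399 and 3428628 listed reads. Per the submitters' processing notes the build is mm8, with the aligner not given in the sources used here. The deposited read lists give each 25-base read's position, strand, match code and alignment score. The deposited window lists give whole-number read counts per 200 bp window, with no normalisation found and empty windows not listed. Moving distinct reads 100 bp from their leftmost base left 0 listed windows below the count so made; reads beyond it are the further reads.

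For 2 kb windows, reads sharing position and strand counted once, and each was moved 75 bp downstream. Ratios were scaled by the rest of chromosome 18. The calling rule was tested on simulated data. RefSeq promoters were placed by reads whose sequence occurs in 1 promoter, with at least 80% of such reads agreeing on the start site; the promoter table used here had 0 rows for chromosome 18, so the planned count of protocadherin promoters was not analysed. The rule for named regions took the 10 with most reads, every called region and those drawn in 1 library only; the others were added as values. Members, gene lists and alternatives were chosen with earlier results of these data known, and the further reads, thinning of chromosome 18 and spans were added after seeing these values. The scripts ran on Python 3.11.15 with scipy 1.17.1, numpy 2.4.6, pandas 2.3.3 and matplotlib 3.10.9.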

Additional observations from a re-analysis of the deposited data

How the results depend on the processing

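The log2 ratio of stretch reads was 0.42 relative to the rest of chromosome 18, and 0.86 scaled by total reads or 0.88 by other chromosomes. Scaled by total background reads, the background log2 ratio of 0.36 was 0.85. Marked windows went from 0.23 to 0.67 with the genome's median and 1.001 with total reads. With a minimum of 15 reads, 15 windows were marked in WT, 34 in Lsh_KO and 5 were gained, 14.3% of those marked against 1.17% on the rest of chromosome 18. With 8 reads 18 were gained, 25.4% against 17.2%. The single thinning draw of chromosome 18 gave 35 marked in Lsh_KO and 5 gained, 12.5% against 1.86%. Regions called higher numbered 12 of 20 scaled by total reads (37.3% on the rest of chromosome 18), 2 of 15 with 10 reads per 200 bp (5.3%), 3 of 20 with the read lists (4.66%) and 1 of 20 with the further reads (2.8%), the last near its share. Regions called lower numbered 0 under the genome's median, total reads, 3-fold or the read lists, and 2 of 34 with no minimum of reads (11.1%). Among the alternatives run, 0 windows were lost and no ratio of the whole stretch, its background, its marked windows or its reads outside regions changed direction. The alternatives for protocadherin promoters were not run, because no such promoter could be placed. No paired analysis was possible because each group had 1 library. Depth limits the regions with 0 to 5 WT reads most.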

Other observations

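Repeats of a position and strand were less frequent in the regions of the stretch drawn in Lsh_KO alone than in the shared ones: 16.9% of the 160 Lsh_KO reads listed inside the former were repeats, against 42.6% in the latter. In WT the share in the shared regions was 30.03%. The regions drawn in Lsh_KO alone also held fewer reads, and the part of read number in this difference was not tested. The shared region at 37815801, which held few reads as well, had 17 distinct of 20 listed Lsh_KO reads.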
